A study of Mus musculus with 4 samples.

Results

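Lymphocytes assemble their antigen receptor genes by V(D)J recombination, and the genes described here encode the enzymes that cut the DNA in that reaction and those that rejoin it. The 10 genes are a list of names, drawn up with earlier results of these data known, out of 55401 gene models in each table. They fall into 2 classes. Rag1, Rag2 and Dntt form the lymphoid-specific class of 3 genes, and Lig4, Xrcc4, Xrcc5, Xrcc6, Dclre1c, Prkdc and Nhej1 form the general end-joining class of 7 genes. All 10 genes were found in the tables and all 10 passed the filter on low counts, which 14635 gene models passed.

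RNA was measured in mouse bone marrow cells labelled ltHSC, long-term hematopoietic stem cells (LT-HSCs), sorted after enrichment for c-Kit, while the study's text calls the cells used for RNA-Seq HSPCs, hematopoietic stem and progenitor cells, a wider population. The KO group, labelled Cpt1a-KO, was by the study's methods Cpt1a fl/fl carrying Vav1-Cre, a transgene that expresses Cre recombinase from a blood cell promoter, so the deletion was present in hematopoietic cells in general and not only in stem cells. The Control group, labelled WT, was by the same methods Cpt1a fl/fl, so both groups came from the floxed allele and the Cre transgene differed between them together with the deletion. The mice were C57BL/6 adults, and each group had 2 libraries with no label that ties a library to 1 animal. The p-values therefore measure the spread between these libraries, which may be technical, and 2 against 2 libraries cannot give an exact two-sided permutation p below 0.333. The KO libraries held 34083159 and 33909781 expected counts, against 20589218 and 23291747 in the Control libraries. Cpt1a, which encodes the enzyme that admits long-chain fatty acids to mitochondrial oxidation, stood at 11.5 and 19.2 TPM (transcript abundance per length, scaled to the same total in every library) in KO cells, against 37.0 and 35.6 TPM in Control cells (log2 fold change -1.6 ± 0.152 SE, edgeR adjusted p = 0.00695). Both KO libraries were below both Control libraries, and neither was at 0. The call was lost, with the direction kept, in edgeR with effective lengths as an offset (log2 fold change -1.26, adjusted p = 0.368). It was also lost in limma on log2(TPM + 1) (-1.23, adjusted p = 0.425) and on log2(TPM + 0.1) (-1.28, adjusted p = 0.443).

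In the reaction, the RAG1 and RAG2 proteins bind recombination signal sequences together and cut the DNA beside V, D and J segments. The coding ends are left as sealed hairpins. The Ku heterodimer, encoded by Xrcc6 (Ku70) and Xrcc5 (Ku80), binds the ends and recruits DNA-PKcs, encoded by Prkdc, which activates the nuclease Artemis, encoded by Dclre1c, to open the hairpins. Dntt encodes terminal deoxynucleotidyl transferase, the template-independent polymerase that adds nucleotides at the junctions. DNA ligase IV, encoded by Lig4, seals the ends with its partners XRCC4 and XLF, which Nhej1 encodes. The joining machinery works on DNA breaks in every cell type, whereas RAG1, RAG2 and the transferase are known from early lymphocytes and, for Dntt and Rag1, from lymphoid-primed progenitors.

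The upstream sequences are shown because they set the classes apart in a feature that the choice of genes did not use. RefSeq promoter windows on GRCm38.p6 were matched by symbol for 9 of the 10 genes, Prkdc being the gene without one, and Lig4 had 2 start sites. The 250 bases before the start are printed 5′ to 3′, with each CG dinucleotide in capitals, for the lymphoid-specific genes and for the general members with the most and the fewest CG dinucleotides. The windows are chr2:101649533-101649782, minus strand (Rag1); chr2:101624462-101624711, plus strand (Rag2); chr19:41029025-41029274, plus strand (Dntt); chr8:9976312-9976561, minus strand (Lig4, the start site further into the gene); and chr1:72307171-72307420, plus strand (Xrcc5).
Rag1: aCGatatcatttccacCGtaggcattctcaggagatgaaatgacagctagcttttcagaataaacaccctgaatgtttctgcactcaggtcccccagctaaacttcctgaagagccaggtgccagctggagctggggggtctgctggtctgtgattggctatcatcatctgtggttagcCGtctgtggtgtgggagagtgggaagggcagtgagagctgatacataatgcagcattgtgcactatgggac
Rag2: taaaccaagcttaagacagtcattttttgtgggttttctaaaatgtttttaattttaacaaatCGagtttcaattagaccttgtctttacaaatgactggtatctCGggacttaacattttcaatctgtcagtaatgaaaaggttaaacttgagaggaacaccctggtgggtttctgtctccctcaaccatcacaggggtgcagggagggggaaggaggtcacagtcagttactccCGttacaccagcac
Dntt: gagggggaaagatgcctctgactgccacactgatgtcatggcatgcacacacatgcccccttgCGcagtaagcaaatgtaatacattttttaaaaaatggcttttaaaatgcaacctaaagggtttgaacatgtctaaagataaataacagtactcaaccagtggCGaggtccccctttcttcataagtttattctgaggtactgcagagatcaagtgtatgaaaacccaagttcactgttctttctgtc
Lig4: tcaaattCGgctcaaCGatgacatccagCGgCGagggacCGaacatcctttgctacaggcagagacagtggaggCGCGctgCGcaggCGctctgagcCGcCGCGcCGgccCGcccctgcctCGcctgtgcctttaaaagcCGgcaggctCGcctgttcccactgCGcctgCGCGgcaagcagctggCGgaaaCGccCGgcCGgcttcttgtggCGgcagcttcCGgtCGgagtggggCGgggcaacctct
Xrcc5: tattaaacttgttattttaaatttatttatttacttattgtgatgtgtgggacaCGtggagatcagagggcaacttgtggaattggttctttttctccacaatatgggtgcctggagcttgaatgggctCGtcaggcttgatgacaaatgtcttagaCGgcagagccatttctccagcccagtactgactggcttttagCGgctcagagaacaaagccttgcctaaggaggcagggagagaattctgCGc

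The lymphoid-specific windows held 3 (Rag1), 3 (Rag2) and 2 (Dntt) CG dinucleotides, fewer than any window of a general member. Among the general members the counts were 5 for Xrcc5, 8 for Dclre1c, 9 for Nhej1, 25 for Xrcc6, 26 for Xrcc4, and 27 and 28 for the start sites of Lig4. Across 32841 promoters in the same table the median was 6, with quartiles of 2 and 16. The 20134 promoters of protein-coding genes had a higher median of 10. Low counts were common among all 32841 promoters, since 37.8% held as few as Rag1 and Rag2 and 29.0% as few as Dntt. At the other end, 7.61% of promoters held as many as the Lig4 window shown. GC content was 50.8% for Rag1, 41.2% for Rag2 and 41.6% for Dntt, against 44.8% for Xrcc5, 48.4% for Nhej1, 54.8% for Dclre1c and 65.2% to 70.0% for the remaining general windows. In CG count, Xrcc5, Nhej1 and Dclre1c lay between the lymphoid-specific genes and the CG-rich group of Xrcc6, Xrcc4 and Lig4, while in GC content Xrcc5 and Nhej1 lay below Rag1.

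**Figure D1:**
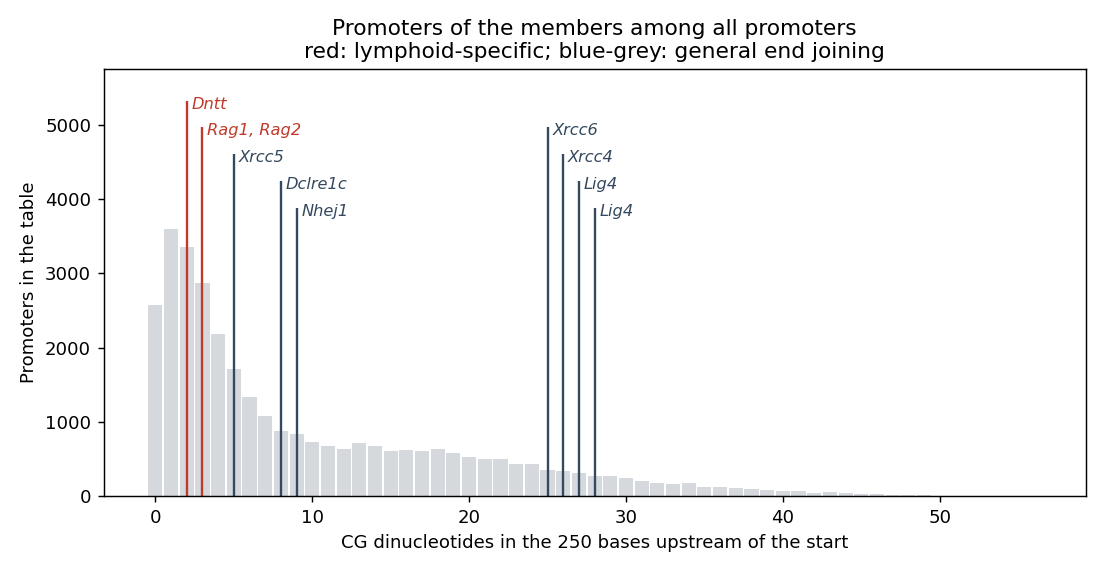
Number of promoters in the RefSeq table (y axis) by the number of CG dinucleotides in the 250 bases upstream of the start (x axis), with the lymphoid-specific genes in red and the general members in blue-grey. Rag1, Rag2 and Dntt sit at 2 or 3 and the general members at 5 to 28, with the 2 start sites of Lig4 at 27 and 28.

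Short motifs were searched on both strands of the same 250 bases. CANNTG, the E-box bound by E proteins, had 3 matches upstream of Rag1, 1 upstream of Rag2 and 3 upstream of Dntt. Among the general members it had 2 matches for Xrcc5, 2 for Dclre1c, 1 for Xrcc6, 1 for Nhej1, 1 for each Lig4 window and none for Xrcc4, and 66.2% of all promoters held at least 1. CCAAT occurred upstream of Rag1, Xrcc5 and Dclre1c (1, 1 and 3 matches), as in 33.9% of all promoters. GGAA, the core bound by ETS factors, was in every window with 1 to 5 matches, as in 93.5% of promoters. TATAAA and the forkhead motif TGTTTAC had no match in any of these windows, against 12.4% and 3.17% of promoters. Apart from CG content, then, the windows of the classes shared motifs that are common in the table.

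The question put to these genes was how far KO cells stood from Control cells in each class. Rag1 was 6.95-fold higher in KO cells and passed the test, and Rag2 and Dntt were higher in both KO libraries without passing it. None of the 7 general members passed the test in either direction, and DESeq2 also called 0 of them. Of the 10 genes, 1 was called higher in KO cells at an adjusted p under 0.05 and 0 lower, where 0.451% of all tested genes were called higher and 0.212% lower. With no adjustment, 3 of 3 lymphoid-specific genes and 0 of 7 general genes had a p under 0.05, a level that 5.81% of tested genes reached as higher in KO cells and 4.61% as lower. By the study's own threshold (unadjusted p under 0.05 and a log2 fold change beyond 1 in size, here applied to the edgeR fit) Rag1 and Rag2 passed as higher and no member as lower, against 2.44% and 1.33% of tested genes. These are counts from 1 fit, and whether the classes differ in how many members change was not tested.

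**Figure D2:**
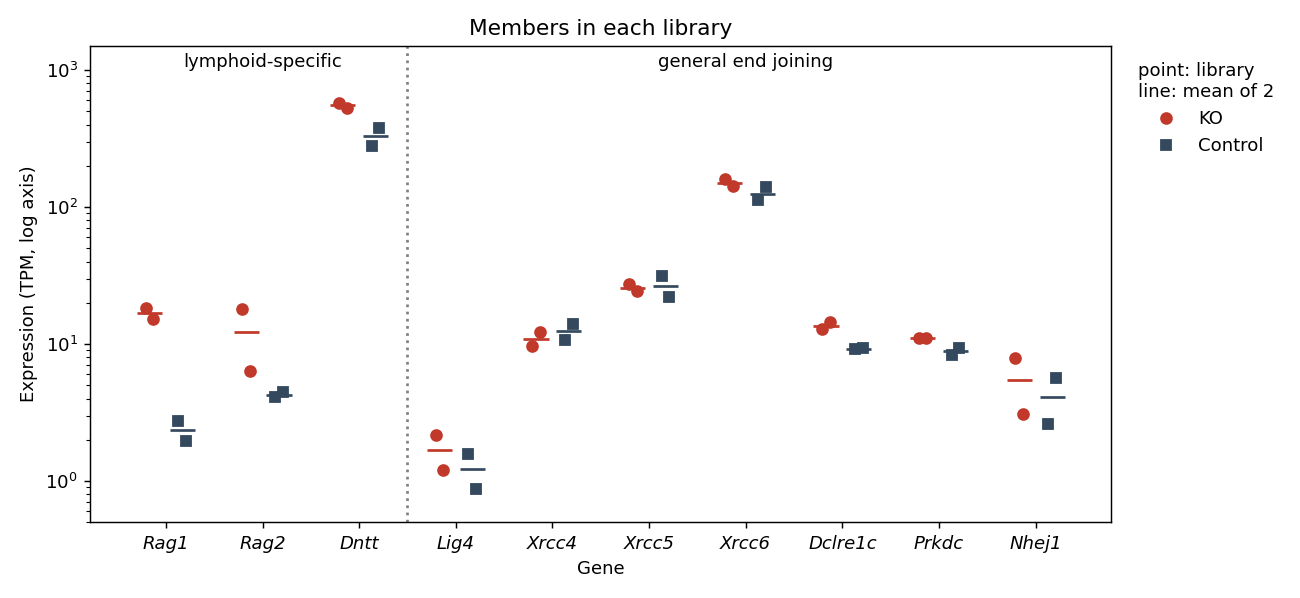
Expression of the 10 genes in TPM on a log axis (y), by gene (x), with KO libraries as red circles left of Control libraries as dark squares, and a line at the mean of 2 libraries. Both Rag1 points of the KO group (18.4 and 15.2 TPM) lie above both Control points (2.73 and 1.97 TPM), while the groups overlap for Lig4, Xrcc4, Xrcc5 and Nhej1.

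Rag1 carries the catalytic site of the recombinase. In GENCODE M21 (GRCm38) it is annotated on chromosome 2 from 101638282 to 101649501, minus strand, with 2 exons in its single transcript model. It stood at 18.4 and 15.2 TPM in KO cells, against 2.73 and 1.97 TPM in Control cells. The groups did not overlap, and the lower KO library was several times the higher Control library. The counts behind these levels were 2823 and 2347 in KO cells, against 260 and 212 in Control cells, and the 95% Poisson interval of the smallest count, 184 to 243, covers counting error only. The fitted log2 fold change was 2.80 ± 0.234 SE (edgeR adjusted p = 0.00506), or 6.95-fold with a 95% interval of 4.78 to 10.1. With any single library left out, the fold change lay between 2.59 and 3.04 on the log2 scale and the adjusted p was at most 0.0129. Such fits leave 1 library in a group, which is assumed to vary like the other group. The call was lost, with the direction kept, in edgeR with effective lengths as an offset (log2 fold change 2.82, adjusted p = 0.0747) and in limma on log2(TPM + 1) (adjusted p = 0.298) or log2(TPM + 0.1) (adjusted p = 0.339).

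Rag2 encodes the partner that binds modified histones and is required for cutting. It lies on the plus strand of chromosome 2 from 101624718 to 101632529, facing Rag1 tail to tail with 5753 bases between them. It stood at 17.9 and 6.38 TPM in KO cells, against 4.07 and 4.46 TPM in Control cells. Both KO libraries were above both Control libraries, but KO replicate 1 was far above KO replicate 2, which was close to the Control level. The counts were 929 and 342 in KO cells, against 144 and 177 in Control cells, so that the KO replicates differed by 2.67-fold in CPM (counts scaled to library size) and their Poisson intervals (870 to 991, and 307 to 380) did not meet. The log2 fold change was 1.34 ± 0.483 SE (95% interval 0.22 to 2.45, edgeR adjusted p = 0.413), and without KO replicate 1 it was 0.46 (adjusted p = 0.967). Rag2 therefore did not pass the test, and the difference rests mainly on 1 library.

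Both recombinase subunits are needed for cutting, and their balance within a library was read from the ratio of their TPM. Rag1 over Rag2 was 1.03 and 2.38 in KO cells, against 0.671 and 0.442 in Control cells. Rag1 was thus the less abundant transcript in both Control libraries and not in either KO library. Among KO libraries the ratio varied through Rag2, since Rag1 differed by only 1.18-fold between those replicates in CPM. Whether Rag1 changed more than Rag2 was not tested.

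Dntt was the most abundant of the 10 transcripts in every library. It is annotated on chromosome 19 from 41029275 to 41059525, plus strand, with up to 12 exons. It stood at 573 and 532 TPM in KO cells, against 278 and 379 TPM in Control cells. The groups did not overlap, and the Control replicates lay further apart than the KO replicates. The log2 fold change was 0.71 ± 0.148 SE, or 1.64-fold (95% interval 1.29 to 2.08), with an unadjusted p of 0.00138 and an edgeR adjusted p of 0.132. The call depended on the setting: Dntt passed in DESeq2 (adjusted p = 3.38e-05), in edgeR with no filter on low counts (adjusted p = 0.0123), without Control replicate 1 (log2 fold change 0.50, adjusted p = 0.0226) and without Control replicate 2 (0.98, adjusted p = 0.000334). In these last fits the spread of Dntt came from the KO pair, moderated across genes.

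Dntt belongs to the X family of DNA polymerases, whose members Poll and Polm fill gaps in end joining in general. These relatives are named outside the rule for named genes. Poll stood at 18.4 and 23.2 TPM in KO cells, against 17.3 and 24.4 TPM in Control cells (log2 fold change -0.05, 95% interval -0.66 to 0.56, edgeR adjusted p = 0.987). Polm stood at 1.46 and 1.67 TPM in KO cells, against 2.55 and 1.72 TPM in Control cells (log2 fold change -0.56, 95% interval -2.38 to 1.26, edgeR adjusted p = 0.908). Neither relative passed the test, and the template-independent polymerase was 31.2 and 23.0 times the level of Poll in KO cells, against 16.0 and 15.5 times in Control cells. Dntt over Rag1 ran the other way, at 31.2 and 35.1 in KO cells, against 102 and 192 in Control cells.

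**Figure D3:**
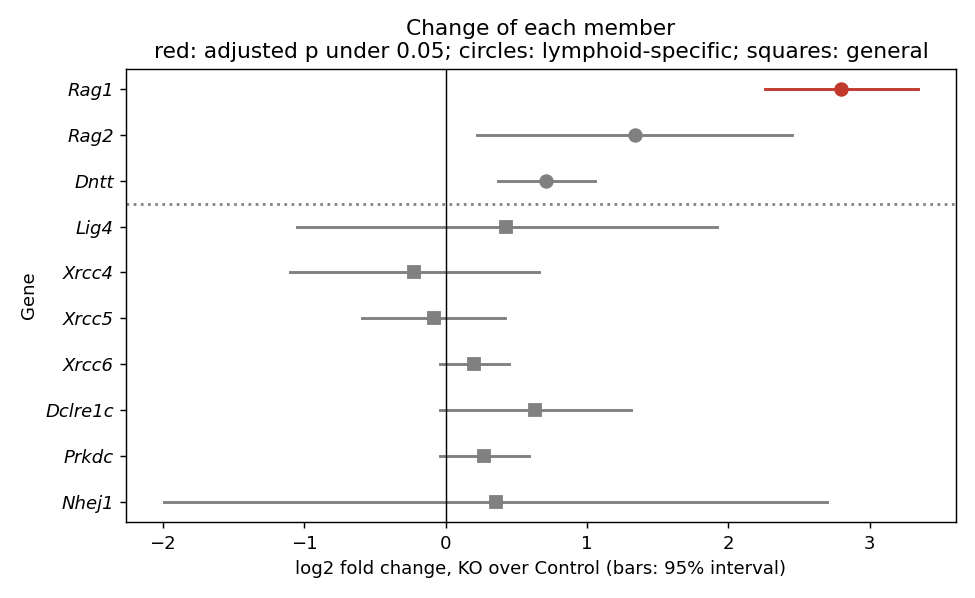
Log2 fold change of KO over Control (x axis) for each gene (y axis), with bars for the 95% interval of the edgeR fit, circles for lymphoid-specific genes and squares for general members. Rag1 (2.80, red) is the 1 gene with an adjusted p under 0.05, the intervals of Rag2 and Dntt lie above 0, and those of all 7 general members include 0.

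The Ku subunits bind each other in equal numbers, but their transcripts were not at equal levels. Xrcc6, on chromosome 15 (81987835 to 82040085, plus strand), stood at 159 and 142 TPM in KO cells, against 112 and 139 TPM in Control cells. The KO libraries were higher by a narrow margin, and the log2 fold change was 0.20 ± 0.104 SE (95% interval -0.04 to 0.45, edgeR adjusted p = 0.546). Xrcc5, on chromosome 1 (72307421 to 72394952, plus strand), stood at 27.5 and 24.2 TPM in KO cells, against 31.4 and 22.0 TPM in Control cells, and the groups overlapped (log2 fold change -0.08, 95% interval -0.59 to 0.42, edgeR adjusted p = 0.963). Xrcc6 over Xrcc5 was 5.77 and 5.89 in KO cells, against 3.57 and 6.32 in Control cells, so the KO ratios lay inside the Control range. The effective length that RSEM gave Xrcc6, a gene with 12 transcript models in the table, varied from 1392 to 1756 bases between libraries. In CPM, which uses no length, the Xrcc6 replicates were nearly equal, at 165 and 164 in KO cells, against 142 and 143 in Control cells.

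The end-processing pair was Prkdc and Dclre1c. Prkdc, a kinase gene with up to 86 exons on chromosome 16 (15637866 to 15842235, plus strand), stood at 11.1 and 11 TPM in KO cells, against 8.31 and 9.38 TPM in Control cells. The groups did not overlap, and the fold was 1.21 with a 95% interval of 0.970 to 1.5 (edgeR adjusted p = 0.543). Dclre1c, on chromosome 2 (3424131 to 3464130, plus strand), stood at 12.8 and 14.4 TPM in KO cells, against 9.14 and 9.34 TPM in Control cells. Its groups did not overlap either, and its log2 fold change of 0.63 ± 0.292 SE was the largest in the general class (95% interval -0.04 to 1.31, edgeR adjusted p = 0.509). Its effective length varied from 1732 to 2312 bases between libraries, and its CPM of 20.7 and 18.5 in KO cells, against 11.4 and 13.8 in Control cells, did not overlap either. The intervals leave room for a rise of up to 1.5-fold in Prkdc and 2.48-fold in Dclre1c.

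The ligation genes had the widest intervals of the general class. Xrcc4, on chromosome 13 (89774027 to 90089608, minus strand), stood at 9.71 and 12.2 TPM in KO cells, against 10.7 and 14.1 TPM in Control cells (log2 fold change -0.22, 95% interval -1.10 to 0.66, edgeR adjusted p = 0.937). Lig4, on chromosome 8 (9969049 to 9977686, minus strand), was the lowest of the 10 genes by mean, at 2.18 and 1.20 TPM in KO cells, against 1.57 and 0.87 TPM in Control cells (log2 fold change 0.43, 95% interval -1.05 to 1.92, edgeR adjusted p = 0.921). Its replicates differed by 1.77-fold in CPM within each group, more than the groups differed in the fit. Nhej1, on chromosome 1 (74967139 to 75125200, minus strand), stood at 7.91 and 3.06 TPM in KO cells, against 2.60 and 5.67 TPM in Control cells, with as few as 31 counts in Control replicate 1. The KO and Control values of Nhej1 interleaved, and its fold interval ran from 0.251 to 6.51, so a change of several fold in either direction was not detectable with these libraries. The scaffold and ligase transcripts were also far apart in level, with Xrcc4 over Lig4 at 4.45 and 10.1 in KO cells, against 6.79 and 16.2 in Control cells.

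The lymphoid-specific class had a mean log2 fold change of 1.62, over values from 0.71 (Dntt) to 2.80 (Rag1). The general class had a mean of 0.23, a difference of 1.39 between the classes. The same difference was read within each library as the mean log2 CPM of the 3 genes minus that of the 7 genes. It was 2.29 and 2.01 in KO cells, against 0.82 and 0.78 in Control cells, where the replicate SD was 0.141. The groups were further apart than the replicates, but genes are not replicates and no test was made. In summed TPM the lymphoid-specific genes came to 609 and 554 in KO cells, against 285 and 385 in Control cells, and the general genes to 230 and 208 in KO cells, against 176 and 200 in Control cells. These sums are carried by 1 gene each: Dntt gave 94.0% and 96.1% of its class in KO cells, against 97.6% and 98.3% in Control cells, and Xrcc6 gave 69.1% and 68.3% of its class in KO cells, against 63.8% and 69.4% in Control cells. The summed ratio of the classes was 2.65 and 2.66 in KO cells, against 1.62 and 1.92 in Control cells. With Dntt set aside, Rag1 and Rag2 together came to 0.158 and 0.103 of the general sum in KO cells, against 0.0387 and 0.0321 in Control cells.

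Both KO libraries lay above both Control libraries in TPM for 3 of 3 lymphoid-specific genes and for 3 of 7 general genes (Xrcc6, Dclre1c and Prkdc), and no member lay below. Over all tested genes the share was 23.1% above and 16.8% below. With shares of that size in the whole table, non-overlap in 3 of 7 genes is not a result about the general class. The median log2 fold change was 1.34 in the lymphoid-specific class and 0.27 in the general class, against 0.01 over all tested genes. With 3 genes, the lymphoid-specific median is the value of Rag2, which was 0.46 without KO replicate 1.

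The order of the levels was read in TPM, which is per length. Dntt, Xrcc6 and Xrcc5 held the first 3 places in both groups, each above the next in both libraries. In KO cells Rag1 took the next place at a mean of 16.8 ± 2.27 TPM (SD, n = 2), above Dclre1c, while Dclre1c, Rag2, Prkdc and Xrcc4 overlapped from one to the next. In Control cells Rag1 was ninth at 2.35 ± 0.537 TPM (SD, n = 2), overlapping Nhej1 above it and above Lig4 in both libraries. Lig4 was last in both groups. The span from Dntt to Lig4 was 263-fold and 443-fold in KO cells, against 177-fold and 436-fold in Control cells.

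Genes that lie beside the members were read to see whether a change extended along the chromosome. B230118H07Rik overlaps both Rag1 and Rag2 in the annotation, and it stood at 32.3 and 36.4 TPM in KO cells, against 47.9 and 44.7 TPM in Control cells, which is the opposite direction to Rag1 (log2 fold change -0.52, edgeR adjusted p = 0.527). No reads were shared between the members and other gene models, since the posterior SD that RSEM gave their counts was 0 in every library. The nearest tested gene beyond the Rag locus on the other side, Traf6, a signalling adaptor 28928 bases away, stood at 19.5 and 16.5 TPM in KO cells, against 19.4 and 19.3 TPM in Control cells (edgeR adjusted p = 0.737). Api5 bounded the locus on its lower-coordinate side, 7186582 bases away, with a log2 fold change of 0.03 (edgeR adjusted p = 0.978). None of these 3 genes passed the test.

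Beside Dntt, 34740 bases towards lower coordinates and on the opposite strand, lies Blnk, which encodes an adaptor of pre-B cell receptor signalling. Blnk stood at 48.6 and 28.4 TPM in KO cells, against 6.82 and 6.06 TPM in Control cells (log2 fold change 2.52 ± 0.337 SE, edgeR adjusted p = 0.0212, and 0.122 without KO replicate 1). It was the 1 tested neighbour that passed the test, and its fitted change was larger than that of Dntt. Tm9sf3, on the other side at 151319 bases, had a log2 fold change of 0.12 (edgeR adjusted p = 0.757). Prkdc starts 466 bases from Mcm4, a replicative helicase subunit on the opposite strand, which stood at 114 and 110 TPM in KO cells, against 120 and 94.6 TPM in Control cells (edgeR adjusted p = 0.986). Mzt2, on the far side of Prkdc, had a log2 fold change of -0.64 (edgeR adjusted p = 0.531).

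The other genes of DNA end repair were read from 5 lists with 53 tested genes, and 0 of the 53 passed the edgeR test in either direction, where 0.451% of all tested genes were called higher and 0.212% lower. At an unadjusted edgeR p under 0.05 there were 6, a level that 5.81% of all tested genes reached as higher and 4.61% as lower. DESeq2 called 5, among them Hmgb1, Hmgb2, Lig3 and Wrn, where it called 4.46% of all genes higher and 3.69% lower. The fold changes of the 53 genes lay between -0.56 and 0.92 on the log2 scale, with a median of 0.04. All 53 values thus lay below those of Rag1 and Rag2, and Xrcc2 lay above Dntt.

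Among 11 accessory factors of end joining, the median log2 fold change was 0.19. Hmgb1 encodes a DNA-bending protein that helps RAG proteins bind their signals, and it stood at 1846 and 1800 TPM in KO cells, against 1406 and 1561 TPM in Control cells (log2 fold change 0.24, edgeR adjusted p = 0.3). Its relative Hmgb2 had 631 and 579 TPM in KO cells, against 527 and 495 TPM in Control cells (log2 fold change 0.20, edgeR adjusted p = 0.447). Both were higher in each KO library by a small margin. Paxx, a Ku-binding factor, had a negative value on the same scale (-0.54, edgeR adjusted p = 0.538).

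Break sensing and end protection was covered by 14 tested genes with a median log2 fold change of 0.03. The smallest p-values belonged to H2afx, the histone marked at breaks (0.14, edgeR adjusted p = 0.701), Shld2 of the shieldin complex (-0.37, adjusted p = 0.713), Mre11a of the end-sensing complex (0.26, adjusted p = 0.723) and the kinase gene Atm (-0.17, adjusted p = 0.731). Alternative end joining, the route used where classical joining fails, had 7 tested genes with a median of 0.07. Wrn, a helicase gene, had 22.3 and 17.2 TPM in KO cells, against 27.3 and 25.5 TPM in Control cells (-0.46, edgeR adjusted p = 0.363), followed by Lig3 (0.31, adjusted p = 0.432), Polq (0.30, adjusted p = 0.577) and Parp1 (0.12, adjusted p = 0.745). None of these named genes passed the test.

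Homologous recombination, which copies from a sister chromatid, had 15 tested genes with a median of 0.04. Xrcc2, a strand-exchange factor, had the highest value of all 5 lists, with 13.0 and 9.32 TPM in KO cells, against 3.75 and 6.32 TPM in Control cells (log2 fold change 0.92 ± 0.345 SE, edgeR adjusted p = 0.427). Rad51d (-0.40, edgeR adjusted p = 0.509), Blm (-0.27, adjusted p = 0.673) and Palb2 (0.29, adjusted p = 0.740) came next by p. These signs come from counts, and TPM ran the other way for Blm and Palb2. Blm had a mean of 38.7 TPM in KO cells, against 33 TPM in Control cells. Palb2 had 15.6 and 16 TPM in KO cells, against 16.9 and 16.2 TPM in Control cells. In class switching and deamination, the later rearrangement of antibody genes in mature B cells, 6 of 7 genes were tested with a median of -0.03. Apex2 (-0.49, edgeR adjusted p = 0.803), Ung (0.13, adjusted p = 0.9) and Msh6 (-0.06, adjusted p = 0.936) were among the 4 with the smallest p-values there, and none passed the test.

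**Figure D4:**
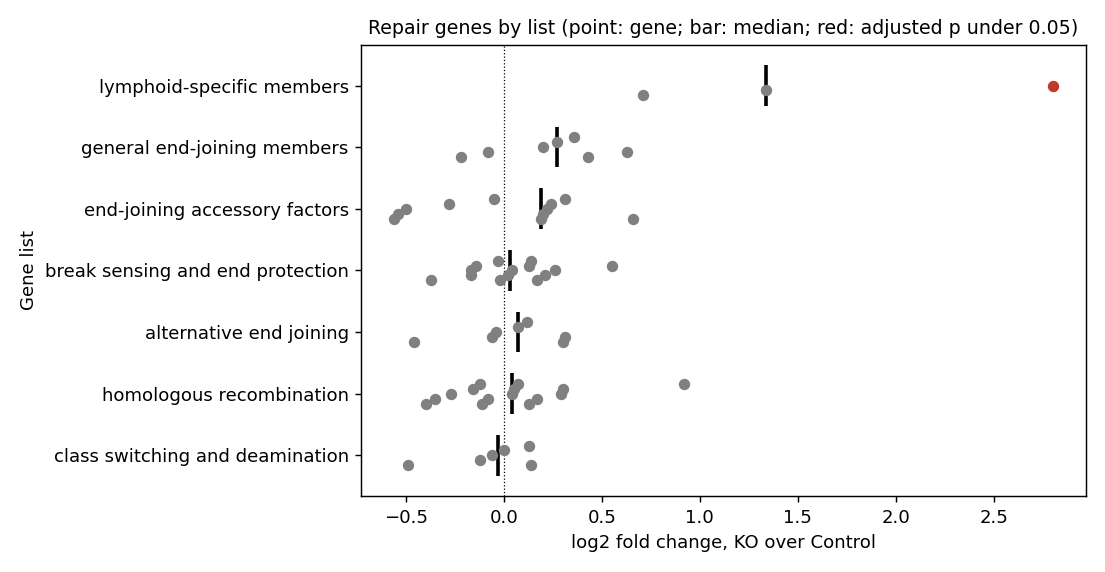
Log2 fold change of KO over Control (x axis) for every tested gene (points) of the member classes and of the 5 repair lists (y axis), with a black bar at each list's median. The lymphoid-specific median is 1.34, the value of Rag2, and the general median 0.27. The medians of the other lists run from -0.03 to 0.19, and none of their genes is red.

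Of 17 transcription factors known to act on the Rag genes or on lymphoid commitment, 3 were called higher in KO cells and 0 lower, where 0.451% of all tested genes were called higher and 0.212% lower. The list median was 0.10, and over its tested genes the log2 fold changes ran from -1.17 to 2.71. Ebf1, which opens the B cell program, stood at 17.6 and 10.6 TPM in KO cells, against 1.66 and 1.6 TPM in Control cells (log2 fold change 2.71 ± 0.344 SE, edgeR adjusted p = 0.0167). Pax5, which fixes B cell identity, stood at 30.4 and 13.0 TPM in KO cells, against 1.99 and 5.14 TPM in Control cells (2.49 ± 0.344 SE, edgeR adjusted p = 0.0232). Satb1, a chromatin organizer of lymphoid progenitors, stood at 90.5 and 101 TPM in KO cells, against 53.4 and 49.5 TPM in Control cells (0.84 ± 0.105 SE, edgeR adjusted p = 0.0152). For each of these 3 genes both KO libraries lay above both Control libraries in TPM. That held for 7 of the 17 regulators, while 3 lay below without overlap. Over all tested genes the shares were 23.1% above and 16.8% below. Without KO replicate 1 all 3 calls were lost, with log2 fold changes of 2.21 for Ebf1 (adjusted p = 0.11), 2.16 for Pax5 (adjusted p = 0.0662) and 0.88 for Satb1 (adjusted p = 0.0519), and without Control replicate 2 1 more gene of the list, Gfi1b, was called lower.

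Markers of B cell progenitors moved with Rag1. Of 13 such genes, none of them a member, 12 were tested and 8 were called higher in KO cells, a call made for 0.451% of all tested genes, and the summed level of the list was 1051 and 836 TPM in KO cells, against 284 and 390 TPM in Control cells. Vpreb3, of the pre-B cell receptor family, stood at 87.9 and 85.0 TPM in KO cells, against 3.07 and 3.41 TPM in Control cells (log2 fold change 4.68, edgeR adjusted p = 0.00610). Vpreb1, Igll1, Cd79a, Cd79b and Blnk were also called, as was Vpreb2. In both Control libraries Vpreb2 was at 0, so it passed the filter through the KO libraries. By a one-sided 95% Poisson bound, a count of 0 allows up to 3 counts in a library. The count of 8 became 2, Vpreb3 among them, without KO replicate 1, 5 without KO replicate 2, 9 without Control replicate 1 and 10 without Control replicate 2, where the whole table had 24, 38, 176 and 238 genes called higher in the same order. In bulk RNA, more cells of a type and more RNA per cell cannot be told apart, and the part of these markers in the level of Rag1 was not tested.

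Il7r, the receptor of the cytokine that early lymphocytes depend on, was the 1 called gene of 9 lymphoid-primed markers, at 18.6 and 16.5 TPM in KO cells, against 5.10 and 5.58 TPM in Control cells (log2 fold change 1.73, edgeR adjusted p = 0.0237). Both KO libraries were needed for that call, with a log2 fold change of 1.63 and an edgeR adjusted p of 0.227 when replicate 1 was left out, and of 1.84 and 0.0657 when replicate 2 was. Of all tested genes, 0.451% were called higher in the fit. DESeq2 called 6 of this list higher, where it called 4.46% of all genes higher. That list summed to 1036 and 993 TPM in KO cells, against 781 and 740 TPM in Control cells, with Ly6d at 0 in both Control libraries. Of 14 T cell markers, 9 were tested and Tcf7 was called higher (log2 fold change 2.94, edgeR adjusted p = 0.0232, and 0.251 without KO replicate 2). Its fold change was smaller with effective lengths as an offset (1.44, adjusted p = 0.529) and in limma on log2(TPM + 1) (1.29, adjusted p = 0.471). The T cell list summed to 125 and 131 TPM in KO cells, against 155 and 108 TPM in Control cells. Of its 9 tested genes, 7 had a positive log2 fold change, with a median of 1.02 and a range from -1.12 to 2.94. Over all tested genes the median was 0.01. The defining T cell genes Cd3e, Ptcra and Trac were at 0 in every library.

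Marker transcripts of other cell types were read in the same way, where 0.451% of all tested genes were called higher and 0.212% lower. Of 8 erythroid markers 4 were called lower (summed level 282 and 331 TPM in KO cells, against 907 and 772 TPM in Control cells), of 8 neutrophil markers 1 was called lower (4537 and 4989 TPM in KO cells, against 8754 and 6270 TPM in Control cells), and of 7 mast cell markers 4 were called higher (357 and 440 TPM in KO cells, against 87.6 and 42.2 TPM in Control cells). The 12 stem cell markers were all detected and 0 were called, with sums of 590 and 578 TPM in KO cells, against 618 and 621 TPM in Control cells. Their log2 fold changes ran from -3.33 to 0.66, with a median of -0.17 and 4 of the 12 positive. With effective lengths as an offset, 0 erythroid, 0 neutrophil and 3 mast cell markers were called, where the whole table had 3 genes called higher and 1 lower. Of the 12 stem cell markers, Gfi1b, Mecom and Ctnnal1 had an unadjusted edgeR p under 0.05, each lower in KO cells (log2 fold changes -1.17, -0.78 and -0.74). Of all tested genes, 4.61% were lower at that level. DESeq2 called 2 stem cell markers lower, where it called 3.69% of all genes lower. Erythroid and neutrophil markers were thus present in libraries labelled ltHSC in both groups. Of the called mast cell markers, Cma1 and Tpsb2 had 0 counts in both Control libraries and Mcpt4 had 1 and 0. Cma1, Tpsb2 and Mcpt4 therefore passed the filter through the KO libraries, while Cpa3 had 575 and 378 counts in the Control libraries.

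The tested genes whose pattern over the 4 libraries was most like that of each lymphoid-specific gene were ranked by the root mean square difference of centred log2(CPM + 0.5), and 4 libraries allow many such likenesses. For Rag1 these were Akap12 (0.0739), Gfra1 (0.137), Itga3 (0.143), Slc6a8 (0.156) and Flt4 (0.158). In the Control libraries Itga3 had 1 and 0 counts, and Slc6a8 and Flt4 had 0 in both. Itga3, Slc6a8 and Flt4 thus passed the filter through the KO libraries, and their likeness to Rag1 depends on the pseudocount of 0.5. Akap12, a scaffold of protein kinase A, stood at 14.6 and 12.2 TPM in KO cells, against 2.37 and 1.83 TPM in Control cells. For Rag2 they were Gm10243 (0.0797), Gdpgp1 (0.102), Gm16580 (0.125), Ulk4 (0.142) and Gpr183 (0.147), which like Rag2 were highest in KO replicate 1. For Dntt they were Slc25a40 (0.0130), Camk2d (0.0313), Rpl17-ps8 (0.0367), Zfp30 (0.0441) and Amn1 (0.0495). Between the lymphoid-specific genes themselves the difference was 0.928 for Rag1 and Rag2, 1.06 for Rag1 and Dntt, and 0.514 for Rag2 and Dntt. The ranked genes were picked as the closest of all tested genes, so their smaller differences say nothing about how alike the class is.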

How the data were processed

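The authors prepared stranded poly(A) libraries and, per the labels and the submitters' processing notes, aligned reads with STAR to mm10 and quantified genes with RSEM; no source used here gives tool versions. The deposited tables hold expected counts, estimated by RSEM and not whole, and TPM, scaled by the authors to the same total in every library. The deposited effective lengths and posterior SDs of the counts, neither a count nor a TPM, were read as other values. Gene IDs without version were matched to GENCODE M21 (GRCm38), with 55141 of 55401 gene models matched.

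Expected counts were rounded to whole numbers, filtered with filterByExpr (minimum count 10) and fitted with edgeR 4.0.16 (R 4.3.3), TMM and a two-sided quasi-likelihood test on genotype, with Benjamini-Hochberg adjustment over 14635 genes and a threshold of 0.05. The study's own thresholds, DESeq2 1.42.0, limma 3.58.1 on log2 TPM and other settings were alternatives. Intervals of fold changes are 95%, and Poisson intervals cover counting error only. The replicate libraries of a group differed beyond counting noise in 71.0% (KO) and 73.2% (Control) of genes, so none was a repeat deposit. The members, gene lists and tests were chosen with earlier results of these data known. Named genes were all members, Cpt1a, the called genes of each other list or up to 4 with the smallest p, the 5 genes most like each lymphoid-specific gene, and the nearest tested neighbours of Rag1 and Rag2, Dntt and Prkdc. Promoter windows came from RefSeq on GRCm38.p6. Some genes that this rule names are not reported here.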

Additional observations from a re-analysis of the deposited data

How the results depend on the processing

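With 2 libraries a group, the number of calls depended strongly on the tool, and the cause was not tested. The fit called 66 genes higher in KO cells and 31 lower. DESeq2 called 628 and 519, no filter on low counts 111 and 85, the effective length offset 3 and 1, limma on log2(TPM + 1) 5 and 0, limma on log2(TPM + 0.1) 0 and 0, and the study's threshold 357 and 195. Leaving out 1 library gave 24 to 238 higher and 18 to 144 lower.

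The lymphoid-specific members called higher numbered 1 in the fit, 2 with DESeq2 and with no filter (Rag1 and Dntt), 2 by the study's threshold (Rag1 and Rag2), and 0 with the effective length offset and in both limma fits; leaving out 1 library gave 1 to 2. No general member was called in any alternative. Rag1 had log2 fold changes of 2.82 with the offset and 2.41 and 2.80 in limma with pseudocounts of 1 and 0.1, without a call. Dntt was called in DESeq2 (0.71) and with no filter (0.72), and ranged from 0.50 to 0.98 with 1 library left out. The difference between the classes was 1.24 in limma on log2(TPM + 1), against 1.39 in the fit, and from 1.22 to 1.5 with 1 library left out.

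The other pathway lists, regulators included, had 3 genes called higher and 0 lower in the fit. DESeq2 gave 9 and 4, no filter gave 1 lower, and the offset and both limma fits gave 0 higher. Leaving out 1 library gave 0 to 3 higher and 0 to 1 lower. Uncalled general members changed sign without 1 library: Xrcc5 ranged from -0.30 to 0.18, Xrcc4 from -0.41 to 0.01, Lig4 from -0.04 to 0.91 and Nhej1 from -0.46 to 1.04 (also -0.10 without Control replicate 1). The 8 calls among B cell progenitor markers became 0 with the offset, 1 and 0 in limma with pseudocounts of 1 and 0.1, and 5 with the replicate block.

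The labels give both groups replicate numbers 1 and 2, but same-numbered libraries did not deviate together (correlation -0.0239). With the replicate number as a block, Rag1 had a log2 fold change of 2.81 (edgeR adjusted p = 0.00118), Rag2 1.18 (adjusted p = 0.484) and Dntt 0.73 (adjusted p = 0.0513), and no member changed its call.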
